A study of Mus musculus with 2 samples.

Results

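The genes described here encode 10 chromatin proteins that keep retroelements and genes of the two-cell embryo silent in embryonic stem cells: Trim28, Setdb1, Zfp57, Ehmt1, Ehmt2, Cbx5, Daxx, Atrx, Kdm1a and Chaf1a. Members were taken as the non-control probes that carry one of these names on the array, which gave 21 probes for the 10 genes, out of 37074 gene names in all. RNA came from 46C mouse embryonic stem cells kept in serum and LIF on feeder cells, which were removed before the cells were harvested. One-colour Agilent arrays were hybridised for 2 groups with 1 array each: shCtrl, cells with a control short hairpin by the genotype label although the sample title calls them WT, and shLincU, cells in which a hairpin targets LincU, a long noncoding RNA. Both groups share the cell line, medium and feeder. With 1 array a group, no difference has a replicate check and there is no test between groups. Signals are in intensity units of the scanner software. Differences are given on the log2 scale as shLincU minus shCtrl, after each array was set relative to its own 75th percentile, which was 626 units for shCtrl and 420 units for shLincU.

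These proteins meet at a shared task. KRAB zinc finger proteins bind DNA and recruit the scaffold TRIM28, which brings in the histone H3 lysine 9 methyltransferase SETDB1 and HP1 proteins, the readers of that mark. Other silencers use a second mark of the same lysine, remove the active mark of lysine 4, or load histones onto DNA. In embryonic stem cells the loss of several of them releases endogenous retroviruses and genes that are otherwise read only around the two-cell stage.

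What an array reads is a short stretch of each transcript, so the stretches behind 5 of the probes are given. They were picked because a reading frame runs through each without a stop codon and because Cbx5, Daxx and Atrx are each read by several probes that differ. Sequences are those of the deposited files, in the sense direction, with positions in build mm9 as the array's annotation gives them. Capitals mark the whole codons of the open frame, 20 in each but Cbx5, which has 19. The Daxx and Atrx stretches are open in 2 frames, and which frame the cell translates was not checked against an annotation.

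Trim28, chr7:13614810-13614868, plus strand: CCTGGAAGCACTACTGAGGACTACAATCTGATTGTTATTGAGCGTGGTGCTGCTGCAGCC
Cbx5, chr15:103036020-103036079, minus strand: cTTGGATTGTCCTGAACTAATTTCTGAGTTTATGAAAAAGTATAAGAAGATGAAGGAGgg
Daxx, chr17:34050229-34050288, plus strand: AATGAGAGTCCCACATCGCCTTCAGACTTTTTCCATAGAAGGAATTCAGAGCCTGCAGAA
Atrx, chrX:103073768-103075301, minus strand: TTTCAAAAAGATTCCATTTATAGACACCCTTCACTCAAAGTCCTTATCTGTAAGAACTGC
Atrx, chrX:103019136-103021480, minus strand: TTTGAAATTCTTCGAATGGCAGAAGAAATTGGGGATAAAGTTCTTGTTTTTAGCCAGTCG

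The Atrx stretches each cross an intron: the 60 bases of the first cover 1534 bases of the genome and those of the second 2345, so they read spliced RNA. The other 3 cross no intron by their annotated positions. That of Trim28 spans 59 bases for a stretch of 60, a mismatch in the array's annotation that was not resolved.

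All 10 genes were measured on both arrays, and none differed by 1.5-fold or more. The differences ran from -0.072 for Daxx to 0.53 for Ehmt2, with a median of 0.075 against 0.020 over all 21042 genes measured. Of all genes, 9.62% were at least 1.5-fold apart, 4.78% higher and 4.85% lower on shLincU, and 2.69% were at least 2-fold apart, 1.15% higher and 1.54% lower, so a count of 0 among 10 genes lies near that background. The difference was above 0 for 8 of the 10 genes, beside 53.1% of all genes, and above the median of all genes for 7. Within 0.5 of 0 lay 9 of the 10, against 86.6% of all genes. The lean to the higher side depended on the processing and on the reference value. With another background correction (normexp), 4 of the 10 were above the median of all genes, itself at 0.088, and 7 were above 0. Without a background filter, 4 were above a median of 0.14 over 37058 genes, and 8 were above 0. With quantile normalization or cyclic loess, 8 were above the median of all genes. With only the brightest probe of each gene, 5 of the 10 were above 0. In bulk RNA, fewer cells of a type and less RNA per cell cannot be told apart.

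**Figure D1:**
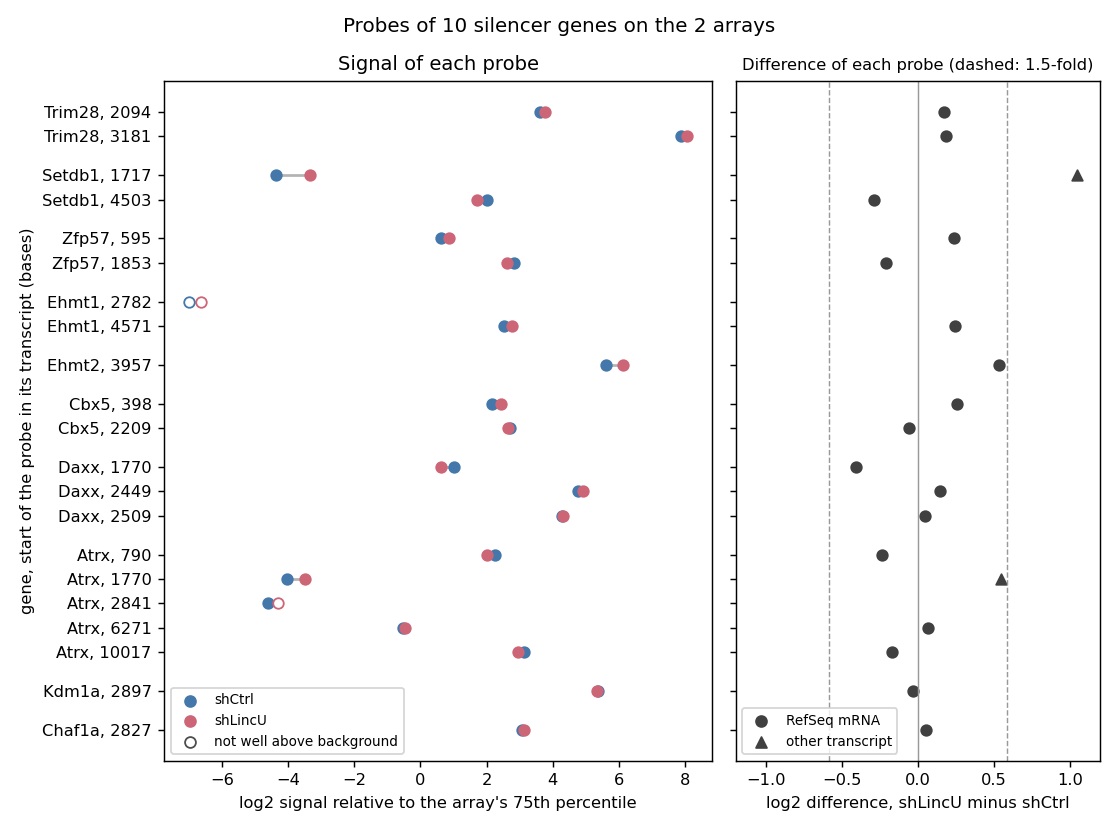
Each row is a probe of a silencer gene, named with the base at which it starts in its transcript. The left panel plots the log2 signal relative to the array's 75th percentile for shCtrl (blue) and shLincU (red), with open circles where a probe was not well above background, and the right panel plots the log2 difference of the probes measured on both arrays, with dashed lines at 1.5-fold. Of the 19 probes in the right panel, only the dim Setdb1 probe to a transcript outside RefSeq, at 1.04, lies beyond those lines; levels of different probes cannot be set against each other.

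Of the 21 probes, 19 were well above background on both arrays. None was saturated, marked as an outlier, or placed beside clusters of spots that differed between the arrays. RefSeq mRNAs are the target of 17 probes, and all 17 were measured. Among these, 10 were above 0 and 7 below, with a median of 0.054 and a range from -0.41 to 0.53. The remaining 4 probes target other transcripts of Setdb1, Ehmt1 and Atrx, and were dim.

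Trim28 encodes the scaffold of KRAB-dependent silencing. Its probe shown above gave 7589 intensity units for shCtrl and 5734 for shLincU, and a probe starting at base 3181 of the mRNA gave 146011 and 111182. Relative to the 75th percentile of each array the probes differed by 0.17 and 0.18, and the gene by 0.18 (SD 0.0080 between its 2 probes). Trim28 was therefore close to the bulk of genes by both probes, which lie on different parts of the slide, and 52.7% of all genes were at least as far from 0.

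Setdb1, the methyltransferase that TRIM28 recruits, was the member whose probes disagreed most. The probe to its RefSeq mRNA gave 2509 units for shCtrl and 1376 for shLincU, a difference of -0.29. A probe to an Ensembl transcript of the gene, at chr3:95143730-95143789, gave 30.0 and 41.6 units, a difference of 1.04. The brighter probe was lower on shLincU and the dim one was higher, so the mean of 0.38 (SD 0.94 between 2 probes) describes neither. Among 3735 probes within 0.5 log2 of the dim probe's level, 3.67% were at least as far from 0. Among 2821 probes near the level of the brighter one, 26.6% were.

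Zfp57, a KRAB zinc finger protein that keeps imprinted control regions methylated, also had probes of opposite sign, designed on different RefSeq mRNAs of the gene. The probe starting at base 595 of its mRNA gave 967 units for shCtrl and 766 for shLincU, a difference of 0.24, and the probe starting at base 1853 of the other gave 4459.6 and 2592 units, a difference of -0.21. The gene's mean difference was 0.015 (SD 0.31 between 2 probes). The first probe lies in the upper rows of the array and the second in the lower rows. The part of array row in the gap was not tested.

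Cbx5 encodes HP1 alpha, a reader of methylated lysine 9. Its probe shown above gave 2812 units for shCtrl and 2252 for shLincU, and a probe starting at base 2209 gave 4067 and 2617.5 units. These are differences of 0.25 and -0.061, with a mean of 0.097 (SD 0.22 between 2 probes). Both probes stayed well within 1.5-fold. The HP1 paralogs Cbx1 and Cbx3, named here after their values were seen, differed by 0.056 and 0.40.

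Ehmt1 and Ehmt2 encode GLP and G9a, which work as a pair and add the milder methylation of lysine 9 found in euchromatin. Ehmt2 was the member farthest from 0: its single probe, at chr17:35050931-35050990, gave 30256 units for shCtrl and 29378 for shLincU. The raw signals were thus nearly alike while the 75th percentile of the shLincU array was lower, which gives a difference of 0.53, or 1.45-fold. Of all genes, 94.1% were lower than this, and of the 768 probes within 0.5 log2 of its level 97.8% were lower. The error that the scanner software assigns to the difference is 0.20, which rests mainly on a preset proportional error and is not a measured spread between cultures.

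Ehmt1 was measured by 1 probe, which gave 3576 units for shCtrl and 2838 for shLincU, a difference of 0.24. A second probe, to an Ensembl transcript, was not well above background on either array, at 4.92 and 4.27 units. Both partners of the pair were above 0, Ehmt2 by more than Ehmt1. Ehmt1 was close to the bulk of genes, since 39.6% of all genes were at least as far from 0. The gap between them has no replicate check.

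**Figure D2:**
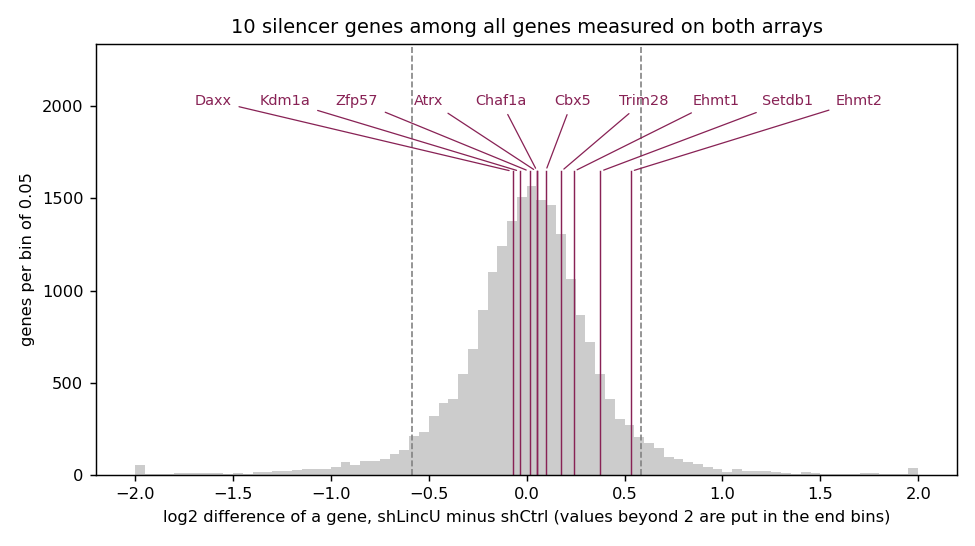
The grey histogram counts all 21042 genes measured on both arrays by their log2 difference, shLincU minus shCtrl, in bins of 0.05, with dashed lines at 1.5-fold. Purple lines mark the 10 silencer genes; they sit between -0.072 (Daxx) and 0.53 (Ehmt2), all inside the dashed lines.

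DAXX and ATRX together deposit the histone variant H3.3 at repeats and telomeres. Daxx was read by 3 probes, whose starts are counted in 2 different RefSeq mRNAs and so cannot be set against each other. The probe shown above, starting at base 1770, gave 1267 units for shCtrl and 642 for shLincU, a difference of -0.41. Probes starting at bases 2449 and 2509 gave 16954 and 12117 units for shCtrl against 12585 and 8395 for shLincU, differences of 0.14 and 0.045. The last pair is not independent, since their sites overlap by 20 bases (gaagatgatggagtaaaaga, chr17:34052404-34052423). The mean of the gene was -0.072 (SD 0.29 between 3 probes), and the probe shown above was the 1 of the 3 below 0.

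Atrx, the chromatin remodeller of the pair, had 5 probes, and 3 of them target its RefSeq mRNA. The stretch starting at base 790 gave 2961 units for shCtrl and 1690.3 for shLincU, that at base 6271 gave 431 and 303, and a probe near the transcript's end, at base 10017, gave 5444 and 3243. The differences were -0.23, 0.068 and -0.17, with no order along the transcript. A dim probe to an Ensembl transcript gave 38.4 and 37.6 units, a difference of 0.54. Another dim probe, to a cDNA, was well above background for shCtrl alone, at 25.4 against 21.1 units. The gene's mean over its 4 measured probes was 0.051 (SD 0.35), and it turns negative when only RefSeq probes are used, at -0.11.

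Kdm1a encodes LSD1, the demethylase of lysine 4 that restrains two-cell genes and retroviral promoters. Its single probe gave 25819 units for shCtrl and 16931 for shLincU, a difference of -0.034. Chaf1a encodes the large subunit of CAF-1, which loads histones onto newly made DNA. Its single probe gave 5235 units for shCtrl and 3649 for shLincU, a difference of 0.054. For both genes the lower raw signal on shLincU matched the lower 75th percentile of that array.

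Genes of proteins that work with the 10 silencers were read beside them. Of 65 partner genes on the array all 65 were measured, 32 above 0 and 33 below, with a median of -0.017 and a range from -0.57 to 0.60. At 1.5-fold 1 was higher, Suv39h1, a methyltransferase of heterochromatin, at 0.60 (SD 0.32 between 2 probes), and 0 were lower, beside 4.78% and 4.85% of all genes. By role, partners of TRIM28 and SETDB1 with the other HP1 proteins had a median of 0.0083 (5 of 10 above 0). KRAB zinc finger genes had a median of -0.023 (4 of 10), with Zfp459 at -0.41 and Gm15446 at 0.39. The partners of G9a and GLP had a median of 0.15 (5 of 5) and a lowest value of 0.0017, beside 53.1% of all genes above 0. Farthest from 0 were the demethylase Kdm3a at 0.21 (SD 0.39 between 2 probes) and Zfp644 at 0.17. With only the brightest probe of each gene the median of these partners was 0.0017.

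Genes of the HUSH complex, which silences young retroelements, and of the MORC family had a median of -0.030 (2 of 6 above 0), from Fam208a at -0.20 to Morc1 at 0.18. Histone chaperones and H3.3 genes had a median of -0.038 (5 of 11), with Ubn2 at -0.37 and Hira at 0.35, both parts of the complex that places H3.3 in active chromatin. The LSD1 complex had a median of 0.048 (7 of 11), with the deacetylase Hdac2 at -0.47 and the scaffold Rcor1 at 0.39. Other repressors of two-cell and germline genes had a median of -0.043 (4 of 12). Among them Pcgf6, a subunit of a variant Polycomb complex, was at -0.57 with its 2 probes close together (SD 0.029), and Uhrf1, which guides maintenance DNA methylation, was at 0.47 (SD 0.074 between 2 probes).

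**Figure D3:**
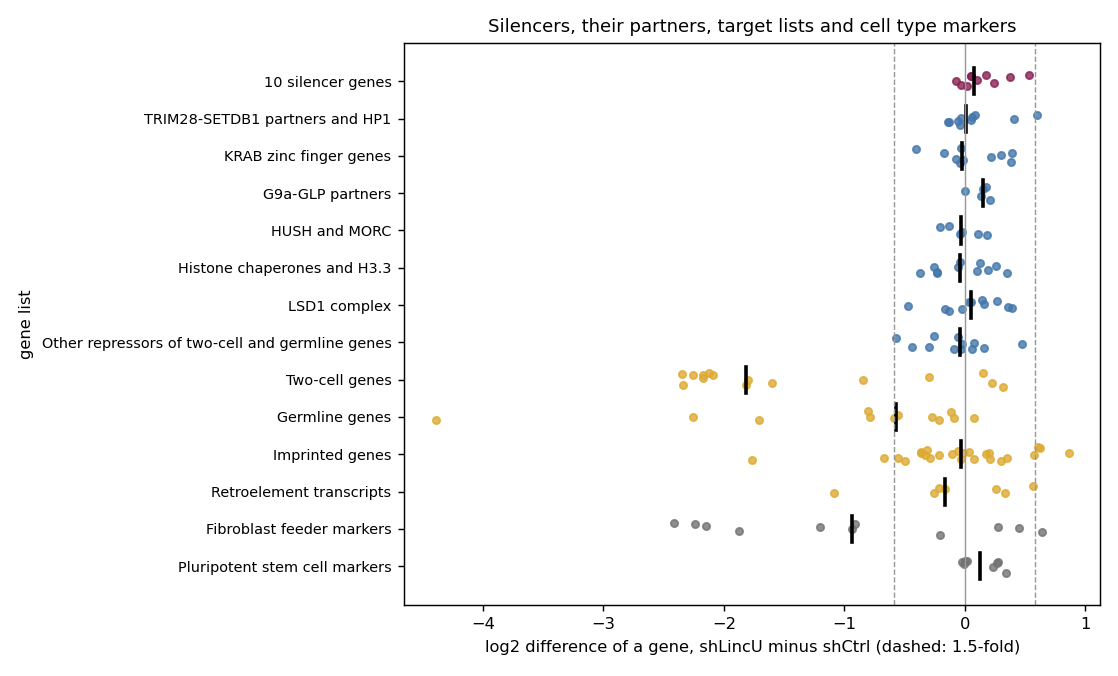
Each point is a gene measured on both arrays, placed by its log2 difference, shLincU minus shCtrl, with 1 row per gene list, a black bar at the list median and dashed lines at 1.5-fold; vertical scatter within a row only separates points. The silencers (purple) and their partners (blue) lie within 0.60 of 0, while the two-cell and germline rows (yellow) extend to -2.35 and -4.39 and the feeder row (grey) to -2.41.

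Two-cell and germline genes, which several of these proteins are known to repress, were mostly lower on shLincU. Of 27 two-cell genes on the array, 15 were measured on both arrays. Another 6 were well above background for shCtrl alone, 0 for shLincU alone and 6 on neither array. Over all probes, 60.9% were well above background for shCtrl and 57.9% for shLincU, so detection leaned to shCtrl on the whole array. Of the 15 measured genes 12 were below 0 and 10 at least 2-fold lower on shLincU, against 1.54% of all genes, with a median of -1.81. Usp17lc, Usp17la and Gm8300 were at -2.35, -2.34 and -2.26. Near-identical copies can share probe signal, so single members of these families are uncertain. The 10 are for the same reason not independent of each other. Zscan4a, Zscan4b, Zscan4c and Zscan4f, at -2.17, -2.12, -2.17 and -2.09, are all counted among them. The highest of the 15 measured genes was Zfp352 at 0.31. It and the Zscan4 genes are named after their values were seen. Of 12 measured germline genes 11 were below 0 and 3 at least 2-fold lower, with a median of -0.57 and with Stra8, Wfdc15a and Dazl at -4.39, -2.26 and -1.71. With another background correction (normexp) the two-cell and germline medians were -1.33 and -0.33. The germline median was also nearer 0 without a background filter, at -0.26 over 17 genes, and on the upper rows of the array alone, at -0.27 over 7 genes.

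Imprinted genes at control regions that ZFP57 binds had a median of -0.033, with 11 of 25 above 0. The median was 0.056 on the upper rows alone, -0.21 on the lower rows alone and -0.24 with probes to RefSeq mRNAs only. The maternally expressed RNA H19 was at -1.77 by 1 of its 2 probes. The growth factor gene Igf2 from the same region was at 0.86 and Mest at -0.67. Transcripts of retroelements themselves went both ways. The array annotation names 7 of them, a list narrowed after the values were seen, and 3 were above 0 with a median of -0.17. The endogenous retrovirus Erv3 was at -1.09 by a dim probe, and another probe to the same mRNA was not well above background on either array. An intracisternal A particle transcript encoding an integrase was at 0.57 and a LINE-1 transcript at 0.34. How many genomic copies each of these probes matches was not tested.

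Markers of other cells were read beside these results. Of 11 measured fibroblast feeder markers 8 were below 0 and 7 at least 1.5-fold lower, beside 4.85% of all genes, with a median of -0.94. The collagen genes went both ways. Col3a1, at 0.64 the 1 marker at least 1.5-fold higher, and Col1a1, at 0.45, were higher on shLincU. The collagen gene Col1a2 was among the 5 markers at least 2-fold lower, with Dcn, Ccl2, Lox and S100a4. All these genes are named after their values were seen. The median was -0.55 on the upper rows alone and -0.59 without a background filter. The markers' summed signal, in units of the 75th percentile, was 21.1 for shCtrl and 13.8 for shLincU, and Lum was above background for shLincU alone. Of 8 markers of pluripotent cells all 8 were measured, within a range from -0.024 to 0.34, with a summed signal of 748 and 853. None of the 12 feeder markers was below background on both arrays. The part of feeder RNA in the differences of the silencer and target genes was not tested. The knockdown was not checked here, since LincU was not matched to a probe, so every direction rests on the labels.

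**Figure D4:**
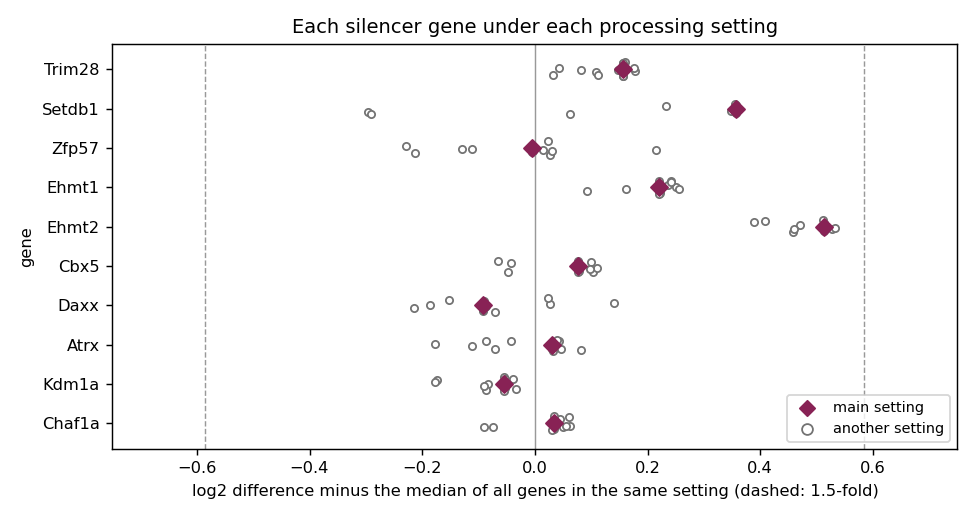
Each point is the log2 difference of a silencer gene minus the median of all genes under the same processing setting, with the main setting as a purple diamond, other settings as open circles and dashed lines at 1.5-fold; vertical scatter only separates points. Ehmt2 stays between 0.39 and 0.53 and Trim28 between 0.032 and 0.18, while Setdb1 runs from -0.30 to 0.36.

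Across 17 processing settings, the main one included, the members were placed relative to the median of all genes. Some settings cannot move that place: median centring and E1A scaling shift all genes alike, and the choice among probes leaves a gene with 1 measured probe as it was, so the counts of settings are a description. Ehmt2, Ehmt1 and Trim28 were above that median in every setting that measured them, 16, 16 and 17 settings, with ranges from 0.39 to 0.53, from 0.092 to 0.26 and from 0.032 to 0.18. Kdm1a was below it in all 16, from -0.18 to -0.034. The sign changed between settings for the other 6 genes: Setdb1, Zfp57, Cbx5, Daxx, Atrx and Chaf1a. No member reached 1.5-fold from that median in any of these settings.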

How the data were processed

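Intensity values in the scanner files were made by the authors with Agilent's Feature Extraction software, version 10.7.1.1 as the submitters' processing notes give it. The file headers record spatial and multiplicative detrending of the processed intensity, a preset proportional error, and 1 slide for both arrays. Flags, other than intensities, were used as deposited, at 0 or 1. The value table holds log2 values as deposited, with a median of 5.65 in each column. Its slope on the scanner log2 values was 0.98 and 1.01; its normalization and centring are not given in the sources used here.

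Each array's 75th percentile, over non-control probes, was subtracted from the log2 processed intensity. Outlier spots were left out (98 and 138), and spots of a probe were averaged. A gene, named as on the array, is the mean of those probes that both arrays measured well above background. SDs are between probes of a gene and measure no spread between cultures. The number of arrays, 1 per group, limits the precision. Sizes of 1.5-fold and 2-fold stand in place of a test. Calculations were tested on simulated data.

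Members and gene lists were chosen with earlier results of these data known. Every member was named. Each partner list gave its genes at least 1.5-fold apart, otherwise the 2 farthest from 0. Each target list gave the 3 farthest from 0. Other genes were named after their values were seen. The software was Python 3.11.15 with numpy 2.4.6, pandas 2.3.3 and matplotlib 3.10.9, and R 4.3.3 with limma 3.58.1.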

Additional observations from a re-analysis of the deposited data

How the results depend on the processing

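No paired analysis was possible because shCtrl and shLincU have 1 array each; leaving out an array would leave no comparison. Tried in turn were normexp with an offset of 50, quantile normalization, cyclic loess, median centring, E1A spike-in scaling, the deposited value table, no background filter, another detection flag, the brightest probe, the median over probes, outlier spots kept, probes beside discordant spots left out, upper or lower rows only, RefSeq names and, added after seeing the data, probes to RefSeq mRNAs only. Of these, only E1A scaling, with a shift of -0.89 in the all-gene median, changed the count of members at least 1.5-fold apart, to 8, and moved the members' median beyond the usual SD between probes (0.18), to -0.82. It moves all genes alike, so it tests nothing about the members relative to other genes. The count at 2-fold was 0 in each of these settings. With the brightest probe Setdb1 was at -0.29, Zfp57 at -0.21, Daxx at 0.14 and Atrx at -0.17, because their other probes were left out.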

Other observations

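A wider search of the array annotation, for descriptions that mention retroviruses, intracisternal A particles or LINE-1, found 16 gene names, 14 of them measured. Some are host genes rather than elements, such as the following, named after their values were seen: Asprv1, an aspartic peptidase of skin, at 0.18, and L1td1, an RNA-binding protein of embryonic stem cells, at 0.036. The highest values that the narrower list left out were AK134484 at 0.49 and BC094435 at 0.45, and the lowest was Xpr1 at -0.24. Of the 14, 9 were above 0, with a median of 0.069, and Erv3, read by a dim probe, was the 1 at least 1.5-fold apart. Nynrin, read by 1 probe, was well above background for shLincU alone. The gap was 1.60-fold, with its shCtrl signal taken as no lower than that array's lowest signal well above background.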
